A study of Mus musculus with 20 samples.

Results

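*Cd28*, *Icos*, *Ctla4* and *Cd86* were followed in single follicular T cells, as 4 of the 13798 genes of the expression matrix. *Cd28*, *Icos* and *Ctla4* encode receptors of the CD28 family, and *Cd86* encodes a ligand of CD28 and CTLA-4. The 4 genes were chosen by name with their levels across the clusters and in both conditions already known, so those levels and their differences are given here as a description, from which no test of the 4 genes is drawn. The 4 genes were tested on a contrast that the choice did not use, between expanded and singleton T cell clones.

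The cells came from spleens of irradiated C57BL/6 recipients. The 5 WT chimeras had received congenic marrow and were immunized with NP-OVA, a hapten coupled to ovalbumin, in alum after 6 weeks. The 5 mixed 564Igi chimeras had received the same kind of marrow mixed with marrow of 564Igi mice, whose B cells carry knocked-in heavy and light chains of an autoreactive receptor. All chimeras were killed 10 weeks after irradiation per the labels, so immunization and the autoreactive marrow cannot be told apart as the source of a difference between conditions. The labelled sex was female for 2 WT and 3 564Igi chimeras and male for the others. CD4+CXCR5+PD-1+ T cells of donor origin were sorted, and each mouse gave a separate 5′ gene expression library and a V(D)J library. The recipients were young adults when irradiated.

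CD28 gives a T cell its main costimulatory signal when it meets CD80 or CD86 on an antigen-presenting cell. CTLA-4 binds the same 2 ligands with higher affinity, does not costimulate, and on regulatory T cells can pull the ligands off the other cell. ICOS, which binds ICOS ligand on B cells, drives phosphoinositide 3-kinase signalling and is needed for the formation and upkeep of follicular helper T (TFH) cells, while follicular regulatory T (TFR) cells carry large amounts of CTLA-4 and restrain the germinal center. CD86 is best known from B cells and dendritic cells.

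In the GENCODE vM21 annotation of GRCm38, the 3 receptor genes lie side by side on the forward strand of chromosome 1, with no other protein coding gene between them. *Cd28* spans 60716800 to 60773359, *Ctla4* spans 60887000 to 60915832 and *Icos* spans 60977927 to 61000320. The gap from *Cd28* to *Ctla4* is 113.6 kb and the gap from *Ctla4* to *Icos* is 62.1 kb. *Cd86* lies on the reverse strand of chromosome 16, from 36603869 to 36666081, and *Cd80*, which encodes the other ligand, lies on the forward strand of the same chromosome from 38455561 to 38496335.

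The libraries held 1121 to 4030 cells and 3424280 to 15241983 unique molecular identifiers (UMIs) per mouse, with 28192 cells in all. A median of 2728 to 4375.5 UMIs was found per cell. Of 27695 different cell barcodes, 491 occurred in 2 or more libraries. Among the T cell genes, *Cd3e* was found in 99.4% ± 0.316, *Cd4* in 67.3% ± 2.03, *Cxcr5* in 40.7% ± 5.95 and *Pdcd1* in 75.6% ± 6.40 of cells (mean ± SD, n = 10 mice). *Foxp3*, the defining transcription factor of regulatory T cells, was found in 56.0% ± 3.98 of TFR cells and in 7.20% ± 2.93 of activated TFH cells. The authors named the TFR cluster by this gene, so these shares are no check of the name. Levels below are the mean over a mouse's cells of log2(corrected UMI count + 1), and a mouse entered a cluster with at least 20 cells. Throughout, a gene or a UMI of it was found in a cell where its corrected count was at least 1. Shares of cells thus rest on the authors' corrected counts, not on raw UMIs of the gene, while totals and depths are raw UMIs.

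Across the 6 clusters the 3 receptors followed different orders. *Cd28* was lowest in TFR cells, *Ctla4* was highest there, and *Icos* was high in TFR, interferon stimulated, Sostdc1 and activated TFH cells and low in effector and central memory TFH cells. The plot of levels by cluster shows each mouse. Because the clusters were made from the expression of the same cells, these differences carry no test.

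**Figure D1:**
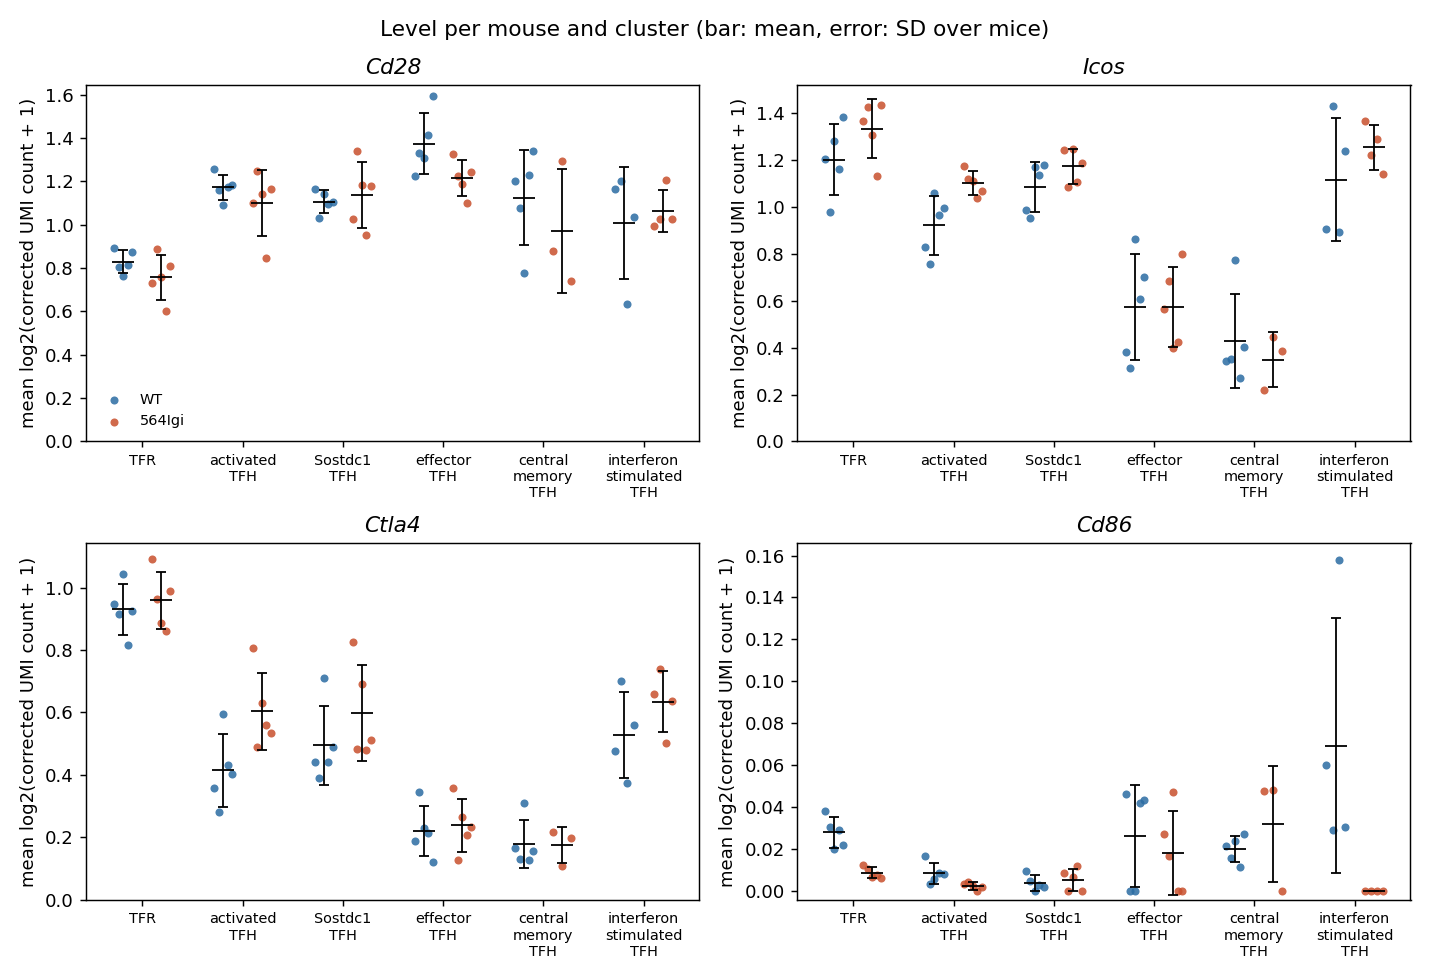
Mean log2(corrected UMI count + 1) of each gene per mouse (points) in the 6 clusters on the x axis, with WT in blue and 564Igi in red, and the mean with SD over each group's mice in black; mice with under 20 cells in a cluster are left out. In TFR cells *Ctla4* sits at 0.82 to 1.09 in all 10 mice, above every activated TFH value of the same mouse, while *Cd28* sits at 0.60 to 0.89.

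*Cd28* was present at the RNA level in most cells of every cluster. Its level was 1.30 ± 0.14 in effector, 1.14 ± 0.11 in activated, 1.12 ± 0.11 in Sostdc1, 1.07 ± 0.24 in central memory and 1.04 ± 0.18 in interferon stimulated TFH cells, and 0.79 ± 0.09 in TFR cells (SD over 10 mice, or 8 mice for the central memory and interferon stimulated clusters). A UMI of *Cd28* was found in 79.9% ± 4.54 of effector TFH cells, 72.4% ± 6.15 of activated TFH cells and 56.6% ± 6.06 of TFR cells. Within mice, the step from activated TFH to TFR cells was downward in 10 of 10. The neighbours activated and Sostdc1 TFH (higher in 5 of 10 mice) and Sostdc1 and central memory TFH (higher in 4 of 8) did not differ beyond their spread, whereas effector TFH cells were above activated TFH cells in 8 of 10 mice.

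*Icos* was highest in TFR cells, with a level of 1.27 ± 0.15 (n = 10 mice). It was 1.19 ± 0.20 in interferon stimulated (n = 8), 1.13 ± 0.10 in Sostdc1 and 1.01 ± 0.13 in activated TFH cells (n = 10 each), and a UMI was found in 61.7% ± 5.33 of activated TFH and 70.7% ± 4.90 of TFR cells. Below these stood effector TFH cells at 0.57 ± 0.19 (n = 10) and central memory TFH cells at 0.40 ± 0.17 (n = 8), where a UMI was found in 40.3% ± 11.05 and 30.3% ± 9.19 of cells. Activated TFH cells were above effector TFH cells in 10 of 10 mice, and effector TFH cells were above central memory TFH cells in 7 of 8. The interferon stimulated and Sostdc1 clusters (higher in 5 of 8 mice) did not differ beyond their spread.

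*Ctla4* was highest in TFR cells. Its level was 0.94 ± 0.08 in TFR cells, 0.55 ± 0.14 in Sostdc1 and 0.51 ± 0.15 in activated TFH cells (n = 10 each), 0.58 ± 0.13 in interferon stimulated TFH cells (n = 8), 0.23 ± 0.08 in effector (n = 10) and 0.18 ± 0.07 in central memory TFH cells (n = 8). A UMI was found in 60.1% ± 3.63 of TFR cells, 35.99% ± 8.63 of activated, 18.5% ± 4.96 of effector and 14.1% ± 4.26 of central memory TFH cells. TFR cells were above the next cluster in 8 of 8 mice. Interferon stimulated and Sostdc1 TFH cells (higher in 4 of 8 mice) did not differ beyond their spread, and Sostdc1 TFH cells were above activated TFH cells in 7 of 10 mice.

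*Cd86* was found in few cells. Of 28192 cells, 330 held 1 corrected count, 17 held 2 and 3 held 3. Its share was 1.79% ± 1.10 of TFR, 0.554% ± 0.476 of activated and 0.472% ± 0.441 of Sostdc1 TFH cells (n = 10 mice each), and TFR cells were above activated TFH cells in 10 of 10 mice. The median depth was 3461 UMIs in TFR, 3547 in activated and 3741 in Sostdc1 TFH cells. The part of depth in these shares was not tested. The 3 smallest clusters had mean shares of 2.37% ± 1.67 (central memory, n = 8), 2.03% ± 1.95 (effector, n = 10) and 3.003% ± 4.62 (interferon stimulated, n = 8), each with a spread between mice about as wide as the mean, and their order among themselves and against TFR cells did not hold within mice (4 of 6, 4 of 8 and 6 of 10 mice).

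Every sorted cell type here is a T cell, so no cluster that should lack *Cd86* was at hand to set a background. Genes of other cells give a scale: *Ms4a1*, *Cd79a* and *Cd79b* of B cells were found in 0.0554%, 0.253% and 3.52% of cells, and *Lyz2* and *Csf1r* of myeloid cells in 0.231% and 0.0525%. Of the 350 cells with *Cd86*, 345 had a UMI of *Cd3e*, 1 had a UMI of *Ms4a1*, 1 of *Cd79a* and 0 of *Itgax*. *Cd79b* was found in 21 of them (6%) against 3.53% of the other cells, and *Lyz2*, *Fcer1g* and *Tyrobp* in 3 each (0.857%) against 0.241%, 0.136% and 0.111%. Over the whole lists, 42 of the 350 (12%) held a listed B cell marker against 11.7% of the other cells (13.7% against 11.4% in WT and 6.90% against 12.1% in 564Igi chimeras), and 3 (0.857%) held a myeloid marker other than *Cst3* against 0.564%. The CD8 T cell gene *Cd8b1* was found in 24 (6.86%) against 4.58%. The cells with *Cd86* were deeper, with a median of 4131.5 against 3537 UMIs. Intervals and detection limits given for shares cover counting error only.

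Cells with one receptor were examined for the others inside each cluster and mouse, which keeps cluster differences out. *Ctla4* and *Icos* were found together. In activated TFH cells with *Icos*, 41.3% had *Ctla4*, against 27.2% of those without, and in TFR cells the shares were 65.1% and 47.7%, higher with *Icos* in 10 of 10 mice in both clusters. *Cd28* showed no such pairing with *Ctla4*: among activated TFH cells with *Cd28*, 35.3% had *Ctla4* against 37.7% of those without, higher in 1 of 10 mice, and in TFR cells 60.2% against 59.7%, higher in 5 of 10 mice. *Icos* was found in 72.8% of TFR cells with *Cd28* against 67.9% of those without, higher in 10 of 10 mice. In activated TFH cells these shares were 61.9% and 61.1%, higher in 5 of 10 mice. Cells with *Cd28* were the deeper ones, with a median of 3635.5 against 3317 UMIs in activated TFH cells, and cells with *Icos* were deeper too, at 3656 against 3369.5. The part of depth in the pairing of *Icos* with *Ctla4*, or with *Cd28* in TFR cells, was not tested.

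In TFR cells *Foxp3* went with *Ctla4* and *Icos*. It was found in 62.2% of TFR cells with *Ctla4* and 47.0% without, in 58.1% with *Icos* and 50.9% without (higher in 10 of 10 mice for both), and in 55.2% with *Cd28* and 57.2% without (higher in 2 of 10 mice). Among activated TFH cells, *Foxp3* was in 11.97% of cells with *Ctla4* and 4.75% of those without (10 of 10 mice). Cells with *Ctla4* were deeper, with medians of 3584 against 3284 UMIs in TFR and 3746 against 3433 in activated TFH cells. TFR cells with *Icos* (3501.5 against 3337.5) and with *Cd28* (3566.5 against 3312.5) were deeper too. Pooled over mice, TFR cells with *Cd86* (223 cells) had *Cd28* in 47.5% against 58.0% of the others, *Pdcd1* in 65.5% against 74.7%, and *Il2ra*, the high-affinity interleukin-2 receptor chain of regulatory T cells, in 22.0% against 11.3%. Of these 223 cells 176 came from WT and 47 from 564Igi chimeras. Only WT mice 11, 12, 23 and 36 had at least 20 TFR cells with *Cd86*. In these 4, *Il2ra* was higher in 4 and *Cd28* lower in 4, and 564Igi mice could not be examined singly. TFR cells with *Cd86* were deeper, with a median of 3844 against 3453 UMIs. The part of depth in the shares of this paragraph was not tested.

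Between conditions, the means of *Icos* and *Ctla4* were higher and the mean of *Cd86* was lower in 564Igi chimeras, and *Cd28* lay close together. None of the 4 genes was called by limma over all cells, where 0.010% of the 9959 genes tested were called (Benjamini-Hochberg adjusted p under 0.01 and an absolute log2 fold change over 0.2). The same count, 0 of the members tested, held in activated TFH (0.0101% of genes called), TFR (0.0200%), Sostdc1 TFH (0.0202%), central memory TFH (0% of genes, with 784 at an unadjusted p under 0.05), effector TFH (0.0104%) and interferon stimulated TFH cells (0.0106%). The mean level of *Cd86* in WT chimeras was 0.0181 over all cells and 0.0281 in TFR cells, so a fall of over 0.2 was out of its reach. Since the choice of the genes used this contrast, nothing is read from these counts. The authors corrected the counts of each condition on its own, so a difference between conditions and a difference between the 2 corrections cannot be told apart.

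Over all cells, *Icos* was 0.96, 0.88, 1.15, 1.01 and 1.16 in WT mice 11, 12, 14, 23 and 36, and 1.25, 1.21, 1.16, 1.04 and 1.22 in 564Igi mice 13, 17, 21, 24 and 34. *Ctla4*, in the same order, was 0.60, 0.64, 0.77, 0.56 and 0.62 in WT and 0.93, 0.66, 0.71, 0.64 and 0.70 in 564Igi chimeras. *Cd28* was 1.09, 0.95, 0.97, 1.03 and 1.06 in WT and 0.92, 1.12, 1.01, 0.77 and 1.03 in 564Igi chimeras. The groups overlapped for all 3 genes, and the difference of 564Igi minus WT was 0.14 for *Icos* (SE 0.06), 0.09 for *Ctla4* (SE 0.05) and -0.05 for *Cd28* (SE 0.06), with n = 5 mice per group. Single mice weighed on the last 2 values: *Ctla4* differed by 0.04 without 564Igi mouse 13, and *Cd28* by -0.0006 without 564Igi mouse 24.

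For *Ctla4* the difference between the group means was larger in activated TFH than in TFR cells. In activated TFH cells it was 0.36, 0.28, 0.60, 0.43 and 0.40 in WT mice 11, 12, 14, 23 and 36, and 0.81, 0.49, 0.63, 0.56 and 0.53 in 564Igi mice 13, 17, 21, 24 and 34. Only WT mouse 14 reached into the 564Igi range, and the difference was 0.19 (SE 0.05). In TFR cells the same mice lay at 0.82 to 1.04 and at 0.86 to 1.09, a difference of 0.03 (SE 0.05), which was 0.0007 without WT mouse 23 and -0.0046 without 564Igi mouse 13.

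The step from activated TFH to TFR cells, taken within each mouse, was 0.52 ± 0.10 in WT and 0.36 ± 0.10 in 564Igi chimeras for *Ctla4*, a difference of -0.16 (SE 0.05). For *Cd28* the step was -0.34 ± 0.02 and -0.34 ± 0.06, and for *Icos* it was 0.28 ± 0.09 and 0.23 ± 0.11 (SD, n = 5 each). The step thus had 1 sign in all 10 mice for each receptor, as the plot of activated TFH and TFR cells shows. Of the 9682 genes tested for a difference in this step, 0% were called (752 at an unadjusted p under 0.05), *Ctla4* included.

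**Figure D2:**
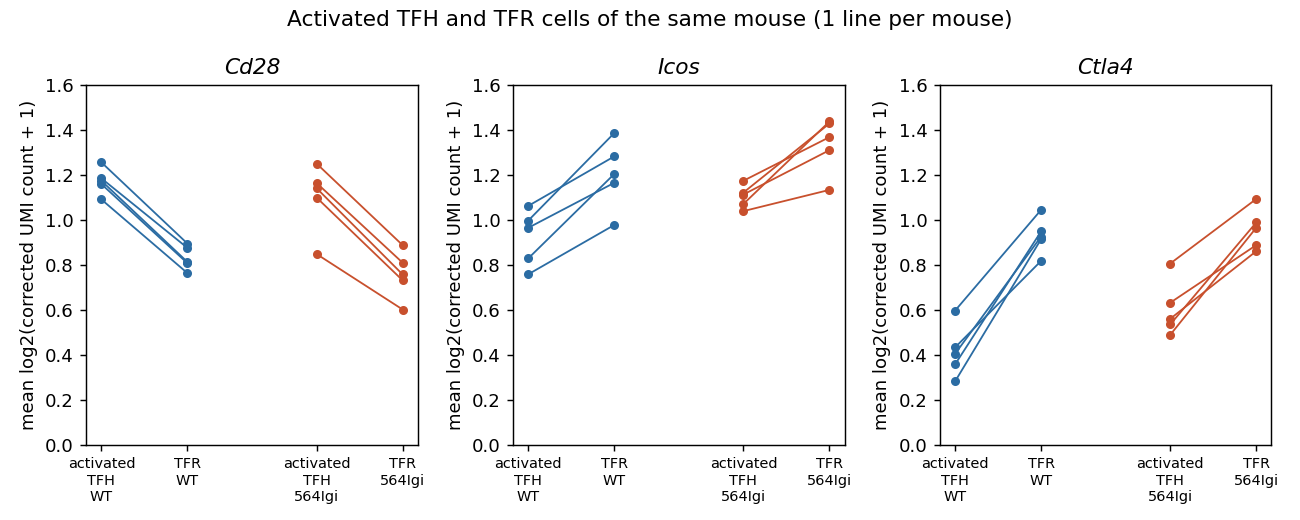
Mean log2(corrected UMI count + 1) of *Cd28*, *Icos* and *Ctla4* in activated TFH and TFR cells, joined by 1 line per mouse, for 5 WT (blue) and 5 564Igi chimeras (red). *Cd28* steps down and *Icos* and *Ctla4* step up in every mouse, and the lines of *Ctla4* start at 0.49 to 0.81 in 564Igi and at 0.28 to 0.60 in WT chimeras.

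*Icos* in activated TFH cells was 0.83, 0.76, 1.06, 0.96 and 0.997 in WT and 1.17, 1.12, 1.11, 1.04 and 1.07 in 564Igi chimeras, mice in the order above. The groups overlapped through WT mouse 14, and the difference was 0.18 (SE 0.06). In TFR cells *Icos* ranged from 0.98 to 1.39 in WT and from 1.13 to 1.44 in 564Igi chimeras, a difference of 0.13 (SE 0.08), which was 0.08 without WT mouse 12. *Cd28* differed by -0.07 in both clusters (SE 0.07 and 0.05), with 564Igi mouse 24 lowest at 0.85 in activated TFH and 0.60 in TFR cells. Without that mouse the differences of *Cd28* were -0.0093 and -0.03. It gave the fewest cells (1121) and the lowest median depth (2728 UMIs).

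*Cd86* was the member whose groups did not overlap. Over all cells a corrected UMI was found in 2.64%, 1.90%, 1.16%, 1.77% and 1.32% of cells in WT mice 11, 12, 14, 23 and 36, and in 0.893%, 0.790%, 0.705%, 0.357% and 0.342% in 564Igi mice 13, 17, 21, 24 and 34. In counts of cells these were 75, 51, 22, 62 and 53 against 27, 24, 22, 4 and 10. Every WT mouse was above every 564Igi mouse, with means of 1.76% ± 0.579 and 0.617% ± 0.254. The level was 0.0181 and 0.0064, a difference of -0.0118 (SE 0.0026). Every 564Igi mouse was below every WT mouse for 0.191% of the genes tested over all cells and for 0.330% of those tested in TFR cells. Over all cells every WT mouse and no 564Igi mouse passed the 1% filter for *Cd86*, so that it was tested only through the WT mice and had to differ. In TFR cells 564Igi mice 13 (1.17%) and 17 (1.04%) passed it as well as every WT mouse. The choice of the genes used these values, so nothing is read from the 0.191% and 0.330%.

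**Figure D3:**
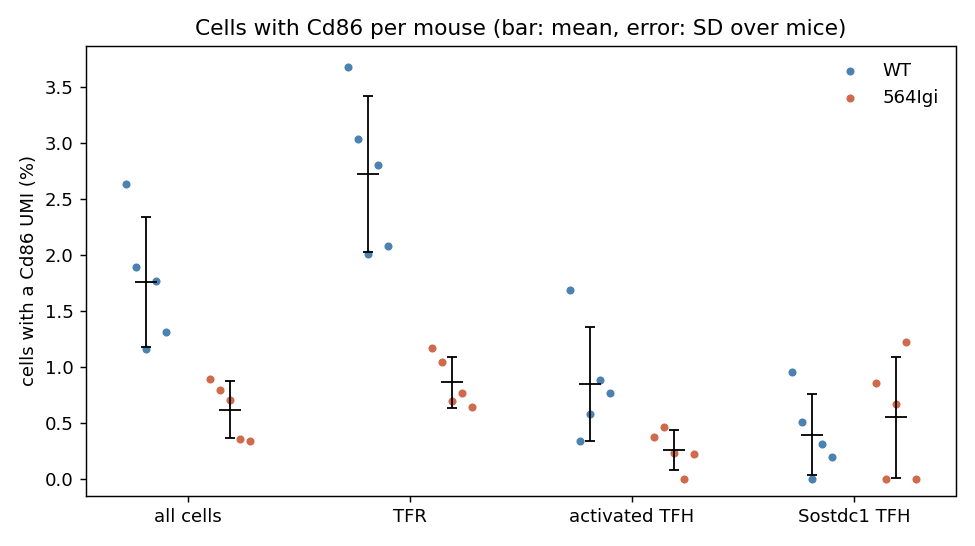
Percent of cells with a corrected *Cd86* UMI per mouse (points, WT blue and 564Igi red) over all cells and in the 3 largest clusters, with the mean and SD over 5 mice in black. Over all cells and in TFR cells the points of the groups do not overlap, while in Sostdc1 TFH cells both groups lie between 0 and 1.22%.

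Of the 350 cells with *Cd86*, 223 were TFR cells. There it was found in 3.68%, 3.03%, 2.01%, 2.80% and 2.08% of the cells of the WT mice and in 1.17%, 1.04%, 0.695%, 0.765% and 0.643% of those of the 564Igi mice, in the same order, again without overlap. Pooled, 176 of 6411 WT cells (2.75%, 95% exact binomial interval 2.36% to 3.18%) and 47 of 5239 564Igi cells (0.897%, 0.660% to 1.19%) held a UMI, at median depths of 3361 and 3591 UMIs. The binomial intervals in this paragraph treat pooled cells as independent and leave out the spread between mice. They are no test between conditions, and the WT mice themselves ran from 2.01% to 3.68%. In activated TFH cells the mean shares were 0.851% ± 0.509 and 0.257% ± 0.177, with overlap. In Sostdc1 TFH cells they were 0.395% ± 0.365 and 0.549% ± 0.539, in the other direction and overlapping. In central memory TFH cells, too, the mean was higher in 564Igi chimeras, at 3.19% ± 2.77 (n = 3) against 1.88% ± 0.501 (n = 5), with overlap, and the pooled counts were 6 of 165 and 10 of 560 cells. Of 191 interferon stimulated cells of 564Igi chimeras 0 held a UMI, which allows a share of up to 1.57% by 3 counts of the total and of up to 1.91% by the exact binomial interval, against 10 of 188 in WT chimeras (5.32%, exact binomial interval 2.58% to 9.56%). Of these 10 cells 5 came from WT mouse 23 (of its 38 cells), 3 from mouse 11 and 1 each from mice 14 and 36. Pooled counts take in mice with under 20 cells, here WT mouse 12 (14 cells) and 564Igi mouse 24 (17 cells).

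The median depth per mouse was 2937.5 to 3823.5 UMIs in WT and 2728 to 4375.5 in 564Igi chimeras, with overlap. After thinning each cell to 2500 corrected counts the mean shares were 1.19% and 0.403%, with WT mice at 0.741% to 1.51% and 564Igi mice at 0.239% to 0.661%. Without cells holding a listed marker of B cells, myeloid cells other than *Cst3* or CD8 T cells they were 1.66% and 0.638%, with no overlap. Of the B cell list 8 of 9 genes were in the matrix, and 9.95% to 12.7% of WT and 8.65% to 14.3% of 564Igi cells per mouse held at least 1. Of these, *Cd79b* was found in 3.98% of the cells of WT and 3.05% of those of 564Igi chimeras. The summed level of the list was 0.411 to 0.479 per 10000 corrected counts in WT and 0.311 to 0.501 in 564Igi chimeras. Of the 11 myeloid and dendritic genes 7 were in the matrix, and without *Cst3* their share was 0.582% to 0.769% of WT and 0.178% to 0.658% of 564Igi cells. Their summed level was 0.0291 to 0.563 and 0.00527 to 0.468 per 10000. The mean myeloid share was 0.671% in WT and 0.407% in 564Igi chimeras, with overlap. Its part in the difference of *Cd86* was not tested. The share of cells with *Cd8b1*, the CD8 T cell gene in the matrix, was 4.84% in WT and 4.34% in 564Igi chimeras.

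Whether these genes vary with the size of a T cell clone was asked next, as the T cell receptor reads did not enter the choice. A clonotype was the pair of α and β CDR3 amino acid sequences within a mouse, and cells of clonotypes of 2 or more cells (expanded) were compared with cells of clonotypes of 1 cell (singletons) in the same cluster and mouse. In activated TFH cells, expanded clones had more *Icos*, the one member past the adjusted p threshold there, and in TFR cells expanded clones had less *Cd28*. Neither difference reached the log2 fold change of 0.2 required for a call. The depth was not equal, with medians of 3586 UMIs in expanded and 3968 in singleton activated TFH cells, and 3459 and 3693 in TFR cells. A paired receptor was read in 72.6% to 89.3% of a mouse's cells, except in WT mouse 36 (48.0%) and 564Igi mouse 34 (56.5%). Clone size counts only cells with a receptor, so a singleton can belong to a larger clone. The part of this in the clone differences was not tested.

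In activated TFH cells *Icos* was 1.06 ± 0.14 in expanded and 0.91 ± 0.12 in singleton cells (SD, n = 10 mice), a difference of 0.16 (SE 0.03, limma adjusted p = 8.17e-05 over 9886 genes), higher in 9 of 10 mice. By mouse, the difference was 0.09, -0.03, 0.01, 0.31 and 0.05 in WT mice 11, 12, 14, 23 and 36, and 0.17, 0.26, 0.16, 0.25 and 0.28 in 564Igi mice 13, 17, 21, 24 and 34. All 564Igi mice were thus above 0.15 and 4 of 5 WT mice below 0.10, and the difference between conditions was 0.14 (adjusted p = 0.611). When each clonotype was weighted once, so that large clones did not dominate, the difference of *Icos* was 0.0961 with an adjusted p of 0.0143. Over all alternatives that kept the 10 mice its adjusted p lay between 1.73e-05 and 0.0177, and it also passed 0.01 no longer without limma's variance trend (0.0153) or the filter (0.0177). *Ctla4* differed by 0.05 (SE 0.02, adjusted p = 0.0423, higher in 7 of 10 mice) and *Cd28* by -0.07 (SE 0.02, adjusted p = 0.0815, lower in 9 of 10), and neither passed 0.01. *Cd86* was below the filter. In activated TFH cells 3.81% of the genes tested passed the adjusted p and 0.142% also passed the fold.

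**Figure D4:**
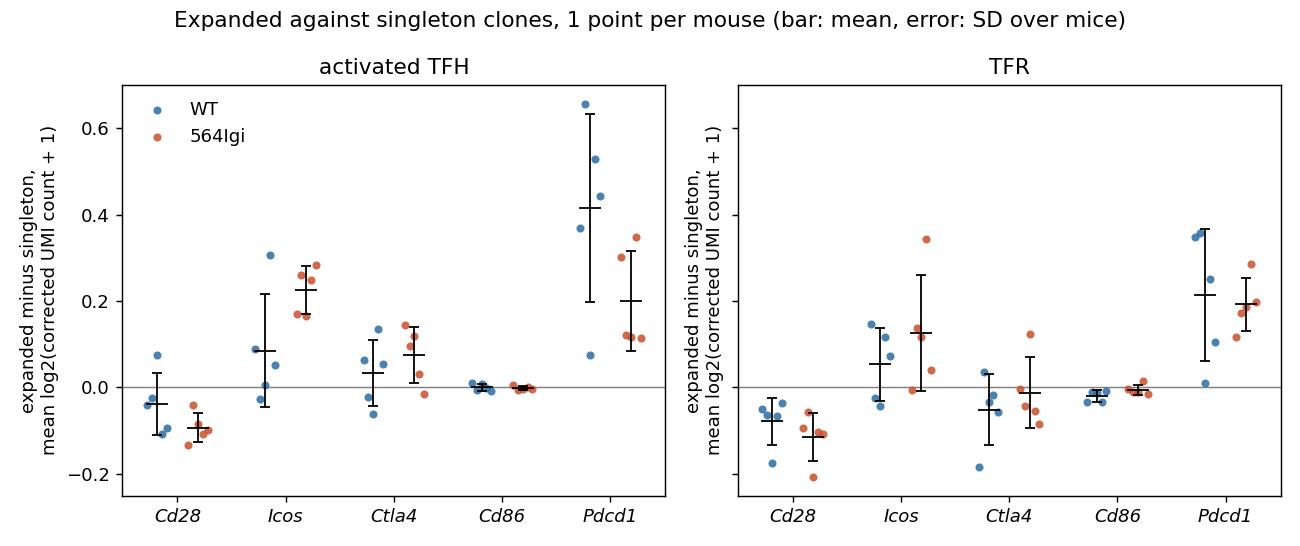
Difference of expanded minus singleton cells in mean log2(corrected UMI count + 1) per mouse (points, WT blue and 564Igi red), for activated TFH (left) and TFR cells (right), with the mean and SD over 5 mice in black. *Icos* is above 0 in 9 of 10 mice in activated TFH cells, *Cd28* is below 0 in 10 of 10 mice in TFR cells, and *Pdcd1* is above 0 in all mice in both.

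In TFR cells *Cd28* was 0.78 ± 0.10 in expanded and 0.87 ± 0.08 in singleton cells, a difference of -0.10 (SE 0.02, limma adjusted p = 0.000716 over 9979 genes), lower in 10 of 10 mice. It was -0.05, -0.06, -0.17, -0.07 and -0.04 in the WT and -0.09, -0.06, -0.21, -0.10 and -0.11 in the 564Igi mice, in the order above. The threshold was not passed with each clonotype weighted once (-0.0321, adjusted p = 0.573) or with each cell thinned to 2500 corrected counts (-0.0532, adjusted p = 0.104), nor without the variance trend (0.0169) or the filter (0.0305), while clonotypes of 4 or more cells gave the lowest adjusted p of the alternatives (9.63e-05). *Icos* differed by 0.09 (SE 0.03, adjusted p = 0.0429, higher in 7 of 10 mice), *Cd86* by -0.0123 (SE 0.0034, adjusted p = 0.0316, lower in 9 of 10) and *Ctla4* by -0.03 (SE 0.02, adjusted p = 0.45, lower in 8 of 10). The share of cells with *Cd86* was 1.31% ± 0.795 in expanded and 2.49% ± 1.67 in singleton TFR cells. Of all genes tested 1.23% passed the adjusted p and 0.0401% also passed the fold.

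The other receptors of the family and their ligands were taken from a list made for this report. *Pdcd1*, which encodes the inhibitory receptor PD-1 used for the sort, rose in expanded clones by 0.31 (SE 0.04, adjusted p = 6.93e-07) in activated TFH and by 0.20 (SE 0.03, adjusted p = 3.75e-06) in TFR cells, higher in 10 of 10 mice in both. In TFR cells its adjusted p was 0.0167 without the variance trend and 0.0201 without the filter, and between 1.52e-06 and 0.000914 in the other alternatives that kept the 10 mice. *Btla*, another inhibitory receptor, was found in 22.7% ± 1.77 of cells and was not called in any comparison. Among the ligands, *Cd80* was found in 4.77% ± 1.07, *Cd274*, which encodes PD-L1, in 7.53% ± 1.36, *Pdcd1lg2*, which encodes PD-L2, in 21.03% ± 1.95, *Tnfrsf14*, which encodes the BTLA ligand HVEM, in 6.02% ± 1.11 and *Icosl* in 0.806% ± 0.236 of cells (SD, n = 10 mice). The share of *Cd80* was 4.45% in WT chimeras (3.62% to 5.58% per mouse) and 5.09% in 564Igi chimeras (3.48% to 6.81%), with overlap. Of the 71 activated TFH cells with *Cd86*, 0 had *Cd80*, against 4.15% of the other activated TFH cells, and 71 cells are too few to read this. Of the 223 TFR cells with *Cd86*, 13 (5.83%) had it, against 6.09% of the other TFR cells.

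Of the downstream lists 0 genes were called between conditions over all cells, where 0.010% of all genes were, so nothing is read from that count. Of all 9959 genes tested over all cells, 6136 were lower in 564Igi chimeras, so most genes of any list tend to be lower. Of 21 genes of CD28 and ICOS signalling, 21 were tested over all cells, 7 were higher and 14 lower in 564Igi chimeras, with a median difference of -0.0058 against -0.0018 for all genes. The largest were *Lck*, the kinase that starts receptor signalling, at 0.08 (SE 0.09) and *Fyn*, a related kinase, at 0.07 (SE 0.04). Of 14 genes that CD28 or ICOS signals are known to change, 13 were tested, 3 higher and 10 lower (median -0.0201), led by *Maf*, a transcription factor downstream of ICOS, at 0.13 (SE 0.07) and *Klf2*, a transcription factor that ICOS signals keep low, at -0.08 (SE 0.06). Of 7 genes for the trafficking of CTLA-4, 4 were higher and 3 lower (median 0.0037), with *Rab11a*, a recycling endosome GTPase, at 0.10 (SE 0.04) and *Ap2m1*, a clathrin adaptor subunit, at 0.05 (SE 0.04). The 3 mRNA decay factors, of which Roquin-1 and Roquin-2 act on *Icos* mRNA, had a median of -0.0104, with *Rc3h1* at -0.02 (SE 0.01) and *Rc3h2* at -0.01 (SE 0.01). Of the 6 regulatory T cell markers, 2 were higher and 4 lower (median -0.0223), and in TFR cells 4 were higher and 2 lower (median 0.0046). The largest over all cells were *Ikzf2*, which encodes Helios, at -0.16 (SE 0.09) and *Foxp3* at -0.05 (SE 0.03).

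In expanded against singleton clones, *Pdcd1* and, among T cell markers, *Cd3e* (0.24 in activated TFH cells, SE 0.03, adjusted p = 6.34e-07) were called. At the adjusted p alone, 2 of the 13 tested genes of CD28 and ICOS outputs were higher and 5 lower in activated TFH cells, where 3.81% of all genes passed, and 1 was higher and 2 lower in TFR cells, where 1.23% did. Chosen for naming after their values were seen, *Il21*, the cytokine of TFH cells, differed by 0.12 (SE 0.01, adjusted p = 1.07e-07) and *Maf* by 0.16 (SE 0.03, adjusted p = 0.000223) in activated TFH cells, and *Klf2*, *Il7r* and *Ccr7*, genes of resting and recirculating T cells, by -0.14, -0.09 and -0.06 (SE 0.02, 0.02 and 0.01, adjusted p of 9.03e-06, 0.000383 and 0.00198). None of these reached the fold of 0.2. Of the signalling genes, *Malt1* (0.07) was higher and *Grap2* (-0.07), *Pik3ip1* (-0.05) and *Pik3r1* (-0.05) were lower at the adjusted p in activated TFH cells, and 0 of 21 passed it in TFR cells. Of the 6 regulatory T cell markers, *Tnfrsf4* (0.17) and *Il10* (0.03) were higher and *Foxp3* (-0.09) was lower in expanded activated TFH cells, while in TFR cells *Ikzf2* (0.14) was higher and *Il2ra* (-0.07) lower. Of the 7 trafficking genes 1 passed, *Trat1*, an adaptor that carries CTLA-4 to the surface, at -0.06 in activated TFH cells.

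Over 56 pairs of mouse and cluster with at least 20 cells, the genes whose mean level was most like that of *Ctla4* were *Tnfrsf4* (Pearson's r = 0.93), *Cd83* (0.90), *Hacd3* (0.89), *Pim1* (0.88) and *Tnfrsf18* (0.87), of 9958 genes compared. For *Icos* they were *Sccpdh* (0.90), *Sting1* (0.89), *Srgn* (0.89), *Nt5e* (0.89) and *Nfil3* (0.87). *Icos* and *Ctla4* stood close to each other, with r = 0.84, the 14th of the list for *Ctla4* and the 13th for *Icos*. For *Cd28* the nearest were *Prex1* (0.70), *Themis* (0.66), *Adcy7* (0.63), *Cnn2* (0.61) and *Cxcr6* (0.60), and its r with *Ctla4* was -0.60 and with *Icos* -0.37. For *Cd86* they were *Fchsd2* (0.64), *Arhgef10* (0.63), *Lgals8* (0.63), *Fbxo8* (0.63) and *Fam89b* (0.61). Points of the same mouse share a library and its depth, and points of the same cluster share the genes that defined it, so these values describe a pattern and carry no p. With each cluster's mean over mice taken off, r between *Icos* and *Ctla4* was 0.49, between *Icos* and *Cd28* 0.11 and between *Ctla4* and *Cd28* -0.11.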

How the data were processed

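The authors processed reads of 10 gene expression and 10 V(D)J libraries with Cell Ranger 4.0.0 against GRCm38 (mm10) and filtered and clustered cells in Seurat 3.1.4. The expression matrix they deposited holds the natural log of the corrected UMI count plus 1, after sctransform on each condition separately. The deposited cell table gives raw UMI counts, gene counts, the percent of mitochondrial UMIs as computed by the authors and their cluster names. After exponentiation and subtraction of 1, 100% of values were whole (tolerance 1e-06). These are corrected rather than raw counts, so no count model was used.

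Values were converted to log2(corrected count + 1) and averaged per mouse, cluster and clone class, with mice as replicates. A gene entered a fit if the number of mice with a UMI of it in 1% or more of their cells reached the size of the smaller group. Fits used limma 3.58.1 in R 4.3.3 with a variance trend and the Benjamini-Hochberg adjustment. A call needed an adjusted p under 0.01 and an absolute log2 difference over 0.2. Expanded minus singleton values were fitted per mouse with condition as a term, for mice with 20 cells on each side. The steps were tested on simulated data. Other steps used Python 3.11.15 with numpy 2.4.6, scipy 1.17.1, pandas 2.3.3 and matplotlib 3.10.9. Positions came from GENCODE vM21.

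The members, the gene lists and the tests were chosen with earlier results of these data known. The text names the 4 members in every comparison, the family's receptors and ligands, called genes of the other lists with the 2 largest differences of each over all cells, and the 5 genes most alike to each member. Depth ranged from 3424280 to 15241983 UMIs per mouse. No doublet caller was run and the sources used here name no step that removed doublets. Of 28192 cells 21405 had a paired T cell receptor, and each of these lists 1 α and 1 β sequence. Alternatives covered the variance trend, the low gene filter, the pseudocount, scaling per 10000 counts, labelled sex, 2 mice with separately numbered libraries, cells with markers of other cells, cell numbers, cluster mix, clone definitions and each mouse left out. Scaling per 10000 counts, labelled sex, leaving out both of the 2 mice and markers of other cells were not varied for the clone comparisons. Some genes of the lists are not reported here by name.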

Additional observations from a re-analysis of the deposited data

Results flagged for a closer look

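Groups of 4 or 5 mice were examined for a value far from the others, by the gap to its nearest neighbour relative to the range. Of 67 groups 5 held such a value, and chance gives about 1 in 20. Of these 5, 3 concern WT mouse 14. It had the highest *Icos* level of the WT mice in central memory TFH cells (0.775 against 0.271 to 0.405) and the highest *Ctla4* level there (0.311 against 0.129 to 0.166). Its expanded minus singleton difference of *Cd28* in TFR cells was -0.174, against -0.0665 to -0.0357 in the other WT mice. The 564Igi mouse 13 had a *Ctla4* level of 0.927 over all cells, against 0.640 to 0.712. The 564Igi mouse 21 had a *Cd28* level of 1.21 in interferon stimulated TFH cells, against 0.994 to 1.03.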

How the results depend on the processing

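Of 843 alternative values 500 left out 1 mouse. A change of sign was looked for only in clone differences with a limma adjusted p under 0.01 in the main analysis. These were *Icos* in activated TFH, *Cd28* in TFR and *Pdcd1* in both clusters, and none of them changed sign. Over all cells the sign of each member's difference between conditions held in 19 of 19 alternatives. In activated TFH and TFR cells it held in 17 of 17 for the members fitted, except *Ctla4* in TFR cells (16 of 17, -0.0046 without 564Igi mouse 13). *Cd86* was below the filter in activated TFH cells and has no value there. The choice of the genes used these differences and the alternatives reuse the same mice, so nothing is read from the signs. The size depended on single mice, with *Cd28* over all cells at -0.0006 without 564Igi mouse 24 and *Ctla4* at 0.0395 without 564Igi mouse 13. *Cd86* depended on the scale, with -0.0185 over all cells and -0.0304 in TFR cells at log2(count + 0.5), and -0.0485 and -0.0785 per 10000 counts. *Ctla4* per 10000 counts differed by 0.4026 in activated TFH cells and by -0.3324 in the step to TFR cells.

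Of the clone differences, *Icos* in activated TFH cells (0.1551) had an adjusted p of 0.0153 without the variance trend and 0.0177 without the filter, and 0.0143 with each clonotype weighted once (0.0961). *Cd28* in TFR cells (-0.0960) had 0.0169 and 0.0305 in the first 2 of these, 0.573 with each clonotype weighted once (-0.0321) and 0.104 after thinning (-0.0532). Weighting and thinning were chosen after seeing the data. Leaving out 1 mouse kept both members under 0.01, and *Cd86* in TFR cells ranged from -0.0147 to -0.0104, passing 0.01 only without 564Igi mouse 24 (adjusted p = 0.00551). The cause of these changes was not tested.

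The number of genes called was small and moved with the settings. Without the trend it was 0 in each of all cells, activated TFH, TFR, Sostdc1, effector and interferon stimulated TFH cells (1, 1, 2, 2, 1 and 1 in the main analysis), and 8 and 2 for clones in activated TFH and TFR cells (14 and 4). Without the filter it was 0 in activated TFH and TFR cells, 1 in Sostdc1 TFH cells, and 8 and 2 for clones. Per 10000 counts it was 2 in all cells, central memory TFH, effector TFH and the step to TFR cells. At + 0.5 it was 33 and 12 for clones, with each clonotype weighted once 2 and 2, with clonotypes of 4 or more cells 8 in TFR cells, and after thinning 9 in activated TFH cells. It was 2 with an equal cluster mix (all cells) and 2 with labelled sex as a term (central memory TFH). Without cells holding markers of other cells it was 3 in central memory TFH cells and 1 for the step. Without mice 34 and 36 it was 6 in effector and 2 in interferon stimulated TFH cells.

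With 1 mouse left out the counts ranged from 1 to 2 in all cells, from 1 to 3 in activated TFH, TFR, Sostdc1, effector and interferon stimulated TFH cells, from 0 to 9 in central memory TFH cells (9 without 564Igi mouse 24), from 0 to 5 for the step (5 without WT mouse 14), from 9 (without WT mouse 23) to 19 for clones in activated TFH cells, and from 2 (without WT mouse 23) to 7 (without 564Igi mouse 34) for clones in TFR cells. A mouse with under 20 cells of a cluster was not in its fit and so was not left out there. The alternative without cells listing more than 1 α or β chain could not be run, as no cell of the expression set lists more than 1. No paired analysis was possible because the WT and 564Igi mice, which form the groups compared, share no replicate numbers. The clone differences and the step to TFR cells were taken within each mouse. *Cd86*, mostly at 1 count in the cells that held it, is the member limited most by depth.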
